A study of Arabidopsis thaliana with 141 samples.

Results

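The cysteine-rich receptor kinase cluster is a group of 9 Arabidopsis thaliana genes that lie together on chromosome 4: CRK5 (AT4G23130), CRK6 (AT4G23140), CRK7 (AT4G23150), CRK8 (AT4G23160), CRK10 (AT4G23180), CRK11 (AT4G23190), CRK13 (AT4G23210), CRK14 (AT4G23220) and CRK15 (AT4G23230). They were taken by locus identifier from 32005 loci that all 141 count tables list, and were chosen with earlier results of these data known. The array they lie in holds 11 further CRK genes. RNA-seq covered 141 libraries in 49 groups, of which 39 groups were 7-d-old seedlings in liquid medium (8 pooled per RNA) and 10 were shoots of 4-week-old soil-grown plants. A time course followed wild-type (WT) seedlings given 100 nM flg22, a peptide of bacterial flagellin that is recognised by the receptor FLS2, for 5, 10, 15, 30 or 60 min, with water at 0 min and 2 libraries per time. In 4 further seedling sets, called B1 to B4, impk36, impk4 and WT seedlings were pretreated for 15 min with 10 uM 3MBiP and then given a stimulus, with 3 libraries per group. B1 held 100 nM pep3 (a plant danger peptide perceived by PEPR receptors), 20 uM abscisic acid and 50 uM methyl jasmonate. B2 held 2 nM flg22 for 30 min or 1 h and wounding by forceps, B3 held UVB (40 W in the labels) and B4 held 10 mM H2O2. The labels give 1 h for the stimuli other than the 30 min of flg22. Every B1 to B4 library, the unstimulated ones included, carried 3MBiP except 1 WT group of B1 that received 0.1% DMSO, and B3 and B4 held unstimulated seedlings of WT only. Adult impk4 plants were sprayed with 100 uM 3MBiP or, as mock, 1% DMSO and taken after 3, 6, 12 or 24 h, beside untreated impk4 plants (0 h) and untreated mpk4 plants, also with 3 libraries per group. 3MBiP is a bulky inhibitor used against kinases engineered to accept it. What impk36 and impk4 carry, and whether each is 1 line or several, is not given in the labels. No adult WT was analysed here, so mpk4 is set against adult impk4.

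Receptor-like kinases of this family carry an extracellular part with a pair of DUF26 domains, a membrane span and a serine/threonine kinase inside the cell. Many of them are switched on by pathogens, salicylic acid and reactive oxygen, and they are studied as parts of immune and stress signalling at the plasma membrane. CRK5, CRK10 and CRK11 were described early as salicylic acid and pathogen responsive genes with WRKY binding sites (W-boxes) in their promoters. Raised CRK5 or CRK13 expression is known to increase resistance to Pseudomonas, and CRK13 does so with more salicylic acid. Loss of CRK5 is known for early senescence and sensitivity to ultraviolet light, while CRK6 and CRK7 are known for protection against extracellular reactive oxygen. MPK3, MPK6 and MPK4 are the mitogen-activated protein kinases downstream of the flg22 and Pep receptors, and mpk4 mutants are known for constitutive defence and high salicylic acid.

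The 9 genes lie between positions 12117491 and 12160279 of chromosome 4 in TAIR10.1, a stretch of 42.8 kb, inside an array of 20 CRK genes that runs on to position 12191704. Aligned coding sequences of the 9 shared 60.8 to 87.5% of bases over 36 pairs, with a median of 67.9%. Over aligned bases CRK6 and CRK8 were the closest pair at 87.5%, ahead of CRK7 and CRK8 at 84.4% and CRK6 and CRK7 at 83.3%. Of the 3132 coding bases of CRK8 only 1317 aligned with CRK6 and 1305 with CRK7. CRK6 and CRK7 aligned over 1971 bases. Of the 50-base windows in the exons, 22% in CRK6, 16.5% in CRK8 and 15.4% in CRK13 occur elsewhere in the genome. CRK6 and CRK8 share 452 such windows, and CRK13 shares 365 with CRK22, so values of these genes are uncertain to the degree that reads were split or dropped there. The annotated ends of CRK10 and CRK11 overlap on opposite strands between positions 12140899 and 12140930, and whether reads were counted by strand is not given in the sources used here.

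W-boxes, the sites that WRKY transcription factors bind, were searched on both strands as TTGACC or TTGACT in the 300 bases upstream of each annotated start. The search found 4 in CRK5, 4 in CRK11, 2 each in CRK6, CRK14 and CRK15, 1 in CRK8 and 0 in CRK7, CRK10 and CRK13. Of 27444 promoters of protein-coding genes in the genome, 32.3% hold at least 1, 7.91% at least 2 and 1.57% at least 3. A match describes the letters of this window only, and its absence says nothing about a factor. Whether matches go with the responses reported below was not tested. The windows of CRK5 and CRK11 are printed because they hold the most W-boxes, and that of CRK6 because its pair lies side by side. That of CRK13 is printed as a window that holds none, like those of CRK7 and CRK10. They are read 5′ to 3′ on the strand of the gene from the TAIR10.1 genome (RefSeq), with W-boxes in capitals. CRK5 is on the minus strand at chr4:12120221-12120520 with W-boxes that begin 275, 63, 57 and 16 bases upstream of its start. CRK11 is on the minus strand at chr4:12143859-12144158 with W-boxes at 133, 69, 49 and 43 bases. CRK6 is on the plus strand at chr4:12121069-12121368 with W-boxes at 82 and 74 bases, and CRK13 is on the minus strand at chr4:12151639-12151938.
CRK5: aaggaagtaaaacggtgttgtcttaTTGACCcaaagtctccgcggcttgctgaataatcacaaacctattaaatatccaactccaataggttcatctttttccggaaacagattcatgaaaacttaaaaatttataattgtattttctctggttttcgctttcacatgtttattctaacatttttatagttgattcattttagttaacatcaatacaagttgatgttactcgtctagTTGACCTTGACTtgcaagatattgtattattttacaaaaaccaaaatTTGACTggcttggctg
CRK11: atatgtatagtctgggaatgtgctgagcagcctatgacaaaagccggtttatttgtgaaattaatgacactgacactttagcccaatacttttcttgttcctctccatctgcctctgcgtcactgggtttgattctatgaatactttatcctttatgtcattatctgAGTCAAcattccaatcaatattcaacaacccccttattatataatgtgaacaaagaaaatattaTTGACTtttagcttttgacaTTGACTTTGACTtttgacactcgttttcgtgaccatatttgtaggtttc
CRK6: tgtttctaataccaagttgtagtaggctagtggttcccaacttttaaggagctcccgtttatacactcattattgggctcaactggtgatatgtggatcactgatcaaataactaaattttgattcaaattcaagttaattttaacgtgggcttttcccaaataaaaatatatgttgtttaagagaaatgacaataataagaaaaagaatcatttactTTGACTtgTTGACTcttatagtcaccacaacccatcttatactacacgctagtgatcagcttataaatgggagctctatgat
CRK13: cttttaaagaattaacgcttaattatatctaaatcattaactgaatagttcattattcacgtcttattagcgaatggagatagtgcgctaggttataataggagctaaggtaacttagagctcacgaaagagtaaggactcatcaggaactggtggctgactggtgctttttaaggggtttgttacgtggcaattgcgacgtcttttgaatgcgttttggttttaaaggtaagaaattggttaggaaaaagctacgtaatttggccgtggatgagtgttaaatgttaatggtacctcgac

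The depth of the libraries was 13.9 to 40.4 M reads in genes (median 23.5 M), and levels below are in CPM, the reads of a gene per M of normalised library size. Alignments that were not unique made up 5.38 to 42.4% of a library. The highest value, 42.4%, belonged to impk36 pep3 replicate 3, and the 12 impk36 libraries of B2 held 13.4 to 16.5%, against 6.47 to 12.8% in the 12 WT libraries of B2. In B1 to B4 MPK4 mRNA was 1350 to 1875 CPM in impk4 and 54.6 to 122 CPM in WT, and MPK6 mRNA was 277 to 534 CPM in impk36 and 55.3 to 119 CPM in WT. Unstimulated MPK3 mRNA was lower in impk36 than in WT, 16.01 to 18.72 CPM against 55.83 to 66.26 CPM in B1. In B2 it was 14.04 to 15.84 CPM against 55.05 to 67.02 CPM. In adult shoots MPK4 was 20.8 to 24.9 CPM in mpk4 and 1152 to 1924 CPM in impk4. Of 8 root markers 7 or 8 reached 1 CPM in the seedling groups (summed level 83.6 to 136 CPM) and 3 to 5 in the adult groups labelled shoot (50.0 to 79.4 CPM). Of 5 floral markers 0 or 1 reached 1 CPM, and of 5 green tissue markers 4 or 5 did (LHB1B2 was listed at 0 in B4 and the adult groups). The summed level of the green tissue markers ran from 14660 to 43590 CPM in seedlings and from 9951 to 71340 CPM in adult groups, and is given below where it moved with a result. The tables give RNA per library only, so fewer cells of a type and less RNA per cell cannot be told apart.

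Before any stimulus the 9 genes differed widely in level. Per kilobase of exon, unstimulated WT seedlings of B1 held 4.52 ± 0.215 CPM per kb of CRK10 (SD, n = 3), 2.98 ± 0.159 of CRK5 and 2.61 ± 0.35 of CRK11, and the ranges of CRK5 and CRK11 overlapped. CRK13 followed with 1.66 ± 0.314 CPM per kb. CRK14, CRK15 and CRK8 lay between 0.211 and 0.397 CPM per kb, with overlap between neighbours, and CRK6 (0.067 CPM per kb) and CRK7 (0.0115 CPM per kb, from 2 reads in 3 libraries) were close to silent. The order changed with the stimulus. After 60 min of 100 nM flg22 CRK11 led with 208 ± 19.9 CPM per kb (n = 2), followed by CRK10, CRK14 and CRK13 at 130.2 ± 10.4, 82.1 ± 8.44 and 67.1 ± 7.9 CPM per kb, and no neighbours in that order of 9 overlapped. In mpk4 shoots the order was another again: CRK6 led with 202 ± 24.1 CPM per kb (n = 3), CRK7 followed with 111 ± 7.62, and CRK14 and CRK10 overlapped at 77.3 ± 7.53 and 76.6 ± 6.42 CPM per kb. Over the 49 groups CRK6, CRK7, CRK8 and CRK15 had their highest mean in mpk4 shoots, CRK5 and CRK14 in impk36 after pep3, CRK10 and CRK11 in the time course at 30 and 60 min, and CRK13 in impk36 after 1 h of flg22. Levels of different sets were normalised apart, and the count tables of B4 and the adult shoots listed more loci than the others.

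The cluster responded to flg22 within 10 min, and by 60 min 9 of 9 genes were higher than at 0 min. At 5 min 0 of 9 passed the edgeR quasi-likelihood test at an adjusted p (Benjamini-Hochberg over all genes) under 0.05, with 3 at an unadjusted p under 0.05 and 0 by DESeq2, against 0.963% of all genes tested in either direction. Higher calls among the 9 numbered 5 at 10 min (6.32% of all genes), 7 at 15 min (12.6%), 8 at 30 min (22.1%) and 9 at 60 min (32.7%). No member was lower at any of these times. At 0 min CRK6, CRK7, CRK8 and CRK15 lay under the level that the filter on low counts asks for. They passed it through later groups, where they were high, so their calls add nothing by themselves to these counts. The median log2 fold change of the 9 was 4.33 at 30 min (3.84 with CRK7 at its lower bound) and 4.49 at 60 min, and that of all genes was -0.03 at both times. The green tissue markers summed to 42590 to 43590 CPM at 0 min, 38880 to 39520 CPM at 30 min and 27380 to 30440 CPM at 60 min, and their part in the results was not tested.

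CRK14 had the largest change at 10, 15 and 30 min among the genes with reads at 0 min. It had 1.04 and 0.935 CPM at 0 min, 1.23 and 0.876 CPM at 5 min, 3.95 and 3.68 CPM at 10 min, 23.0 and 28.6 CPM at 15 min, 160 and 157 CPM at 30 min, and 174 and 150.5 CPM at 60 min. Both libraries of each time from 10 min on lay above both libraries at 0 min, and the log2 fold change was 1.94 ± 0.24 at 10 min (SE, adjusted p = 9.4e-06, edgeR) and 7.31 ± 0.13 at 30 min (8.8e-20). CRK10 and CRK11, both known as salicylic acid responsive, started higher. CRK10 had 26.6 and 31.4 CPM at 0 min, 69.4 and 65.0 CPM at 10 min, 181 and 204 CPM at 15 min, 591 and 574 CPM at 30 min, and 350 and 313 CPM at 60 min. CRK11 had 23.4 and 26.3 CPM at 0 min, 45.0 and 48.97 CPM at 10 min, 97.1 and 109 CPM at 15 min, 354 and 357 CPM at 30 min, and 562 and 490.4 CPM at 60 min. CRK10 thus peaked at 30 min and CRK11 at 60 min among the times sampled, although the genes are neighbours. CRK13 had 1.86 and 2.04 CPM at 0 min, 4.14 and 4.49 CPM at 10 min, 16.4 and 16.7 CPM at 15 min, 61.6 and 53.9 CPM at 30 min, and 191 and 161 CPM at 60 min. Its libraries did not overlap with those at 0 min from 5 min on, and its log2 fold change reached 6.50 ± 0.13 at 60 min (adjusted p = 2e-18, edgeR).

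The other 5 genes rose later or less. CRK5 had 3.495 and 4.63 CPM at 0 min, 7.21 and 5.77 CPM at 10 min, 21.2 and 21.1 CPM at 30 min, and 36.3 and 25.5 CPM at 60 min. Its call at 10 min (log2 fold change 0.69, adjusted p = 0.044, edgeR) was lost without the first library at 0 min or the first at 10 min, where the value was 0.50 to 0.90 over single libraries left out. CRK6 had 0.186 and 0.0425 CPM at 0 min and 0.341 and 0.0855 CPM at 10 min, which overlapped. From 15 min its libraries stood clear of those at 0 min, with 1.51 and 1.55 CPM at 15 min, 6.10 and 6.04 CPM at 30 min, and 5.33 and 3.66 CPM at 60 min. Its log2 fold change at 30 min, 5.61 ± 0.37, ran from 4.99 to 7.00 with single libraries left out, and 0 min held few reads. CRK15 first passed at 15 min with 1.13 and 0.861 CPM, against 0.372 and 0.34 CPM at 0 min (log2 fold change 1.46 ± 0.37), and the call was lost without the first library at 15 min (highest adjusted p over single libraries left out 0.069). CRK8 passed from 30 min, with 1.39 and 1.68 CPM at 30 min, against 0.149 and 0.127 CPM at 0 min (3.43 ± 0.46). CRK7 had 0 reads in both libraries at 0 min and 62 reads at 60 min (1.78 and 1.32 CPM), at least 26.1-fold higher over the group with 3 counts as the floor.

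**Figure D1:**
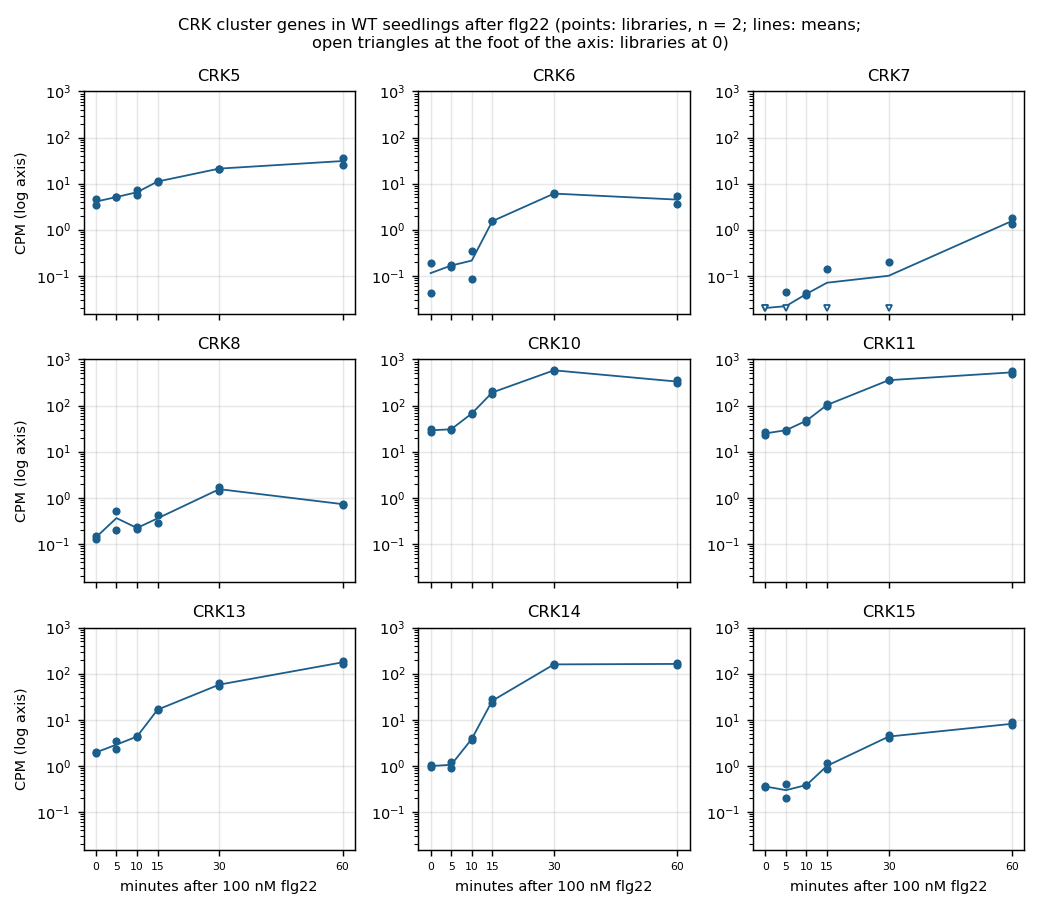
CPM (log axis) against minutes after 100 nM flg22 in WT seedlings, 1 panel per gene, with points for the 2 libraries of each time and lines through their means. CRK10 reaches 591 and 574 CPM at 30 min and is lower at 60 min, CRK11 goes on to 562 and 490.4 CPM at 60 min, and CRK7 is above 1 CPM only at 60 min.

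A comparison of 60 min with 30 min, added after the values were seen, separated the genes. CRK5, CRK7, CRK11, CRK13 and CRK15 were higher at 60 min (5 of 9, against 26.7% of all genes higher), and CRK8 and CRK10 were lower (2 of 9, against 29.9% lower). CRK13 had the largest change after that of CRK7, 191 and 161 CPM at 60 min and 61.6 and 53.9 CPM at 30 min (log2 fold change 1.61 ± 0.08, adjusted p = 8.8e-12, edgeR). CRK10 fell to 350 and 313 CPM at 60 min, against 591 and 574 CPM at 30 min (-0.81 ± 0.07, 1.4e-09). CRK14 had 174 and 150.5 CPM at 60 min and 160 and 157 CPM at 30 min, which overlapped (0.03 ± 0.07). The calls of CRK5 (0.55, 0.27 without the first library at 60 min) and CRK8 (-1.08, lost without the second library at 30 min or either at 60 min, and with DESeq2) depended on single libraries. The rise of CRK7 (3.75) ranged from 2.92 to 8.16 with single libraries left out, and it had 5 reads at 30 min.

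With 2 nM flg22 in 3MBiP-treated WT seedlings of B2 members were again higher than without flg22, at a lower dose. At 30 min 9 of 9 were higher than in unstimulated seedlings (22.1% of all genes), and at 1 h 8 of 9 (29.8%). The medians were 3.85 (the fitted value of CRK7, from 1 unstimulated read) and 4.93, against -0.02 and -0.01 over all genes. Without flg22 CRK6 and CRK7 lay under the level that the filter on low counts asks for. They passed it through other groups, so their calls add nothing by themselves to these counts. The green tissue markers summed to 15450 to 15960 CPM at 1 h and 22190 to 24900 CPM at 30 min, against 22620 to 22720 CPM unstimulated, and their part was not tested. CRK14 was again the strongest: it had 133, 98.5 and 114 CPM at 1 h and 98.7, 82.8 and 87.3 CPM at 30 min, against 0.888, 0.711 and 0.789 CPM unstimulated. Its log2 fold change was 6.80 ± 0.22 at 30 min and 7.16 ± 0.21 at 1 h. CRK11 had 517, 412 and 451 CPM at 1 h, against 7.52, 6.89 and 7.58 CPM unstimulated (5.96 ± 0.13, adjusted p = 1.4e-25, edgeR). CRK8 had 0.892, 0.97 and 0.888 CPM at 1 h and 0.731, 0.711 and 0.789 CPM unstimulated; the groups did not overlap, but the test was not passed (0.28 ± 0.37, adjusted p = 0.54, edgeR). CRK7 had 101 reads at 1 h and 1 read in the 3 unstimulated libraries, a ratio of 102 with an exact 95% interval of 17.9 to 4.08e+03 that covers counting error only. The added comparison of 1 h with 30 min repeated part of the time course: 5 of 9 were higher at 1 h (24.5% of all genes), CRK7, CRK11, CRK13, CRK14 and CRK15, and 2 were lower (25.3%), CRK8 and CRK10. Of these the calls of CRK14 (0.36) and CRK15 (0.56) were lost without single libraries, CRK14 without 30 min replicate 2 or 1 h replicate 1 and CRK15 without 30 min replicates 2 or 3 or 1 h replicate 3.

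Pep3 moved the whole cluster as flg22 did. After 1 h 9 of 9 genes were higher in WT seedlings (32.2% of all genes), with a median log2 fold change of 5.75, against -0.01 over all genes. The green tissue markers summed to 17090 to 18980 CPM with pep3 and 21880 to 23810 CPM without, and their part was not tested. CRK6, known for protection against extracellular reactive oxygen, had 29.98, 37.1 and 54.4 CPM with pep3 and 0.181, 0.15 and 0.191 CPM without. No library overlapped, and the log2 fold change of 7.81 ± 0.41 was the highest of the 9 (adjusted p = 3.3e-16, edgeR). Without pep3 CRK6 and CRK7 lay under the level that the filter on low counts asks for, and they passed it through other groups. CRK14 had 146, 153 and 179 CPM with pep3 and 0.907, 0.748 and 0.7 CPM without (7.67 ± 0.19). CRK15 had 33.1, 37.3 and 43.6 CPM with pep3 and 0.499, 0.349 and 0.668 CPM without (6.16 ± 0.23). CRK5 had 71.7, 73.8 and 102 CPM with pep3 and 7.30, 6.58 and 7.09 CPM without (3.56 ± 0.15). CRK10, CRK11 and CRK13 had log2 fold changes of 4.38, 5.75 and 5.10, and CRK8 the lowest, 0.95 ± 0.30, with 1.20, 1.84 and 1.88 CPM against 0.771, 0.897 and 0.891 CPM. CRK7 had 252 reads with pep3 and 2 without, a ratio of 133 (exact 95% interval 36.3 to 1.1e+03). Pep3 (100 nM) and flg22 (2 nM) differed in dose and set, so their sizes are given side by side only: CRK6 had 7.81 with pep3 and 3.48 with 1 h of flg22, and CRK5 had 3.56 and 1.15.

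Wounding raised part of the cluster. In WT 7 of 9 genes were higher after 1 h (28.7% of all genes), with a median of 2.11 against 0.01 over all genes. The green tissue markers summed to 16350 to 17060 CPM after wounding and 22620 to 22720 CPM without, and their part was not tested. CRK13 had 75.9, 70.1 and 74.4 CPM after wounding and 5.48, 5.25 and 5.35 CPM without (log2 fold change 3.77 ± 0.13, adjusted p = 6.4e-21, edgeR). CRK14 had 24.7, 25.02 and 25.4 CPM after wounding and 0.888, 0.711 and 0.789 CPM without (4.97 ± 0.25). CRK10 and CRK11 rose by less, 1.78 ± 0.11 and 2.56 ± 0.13. The calls of CRK6 (1.40) and CRK7 (10 reads against 1, ratio 10.6, exact 95% interval 1.51 to 461) were lost without single libraries: CRK6 without unstimulated replicate 1 or wounding replicate 2, CRK7 without either of unstimulated replicates 1 and 2 or wounding replicates 2 and 3. Unstimulated CRK6 and CRK7 lay under the level that the filter on low counts asks for, so their calls add nothing by themselves. CRK5 (0.23) and CRK8 (-0.90) did not pass.

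H2O2 also raised part of the cluster, the members whose wounding calls held without any single library. CRK7 did not pass the filter on low counts in B3 or B4, where its highest library had 0.248 CPM, so 8 members were tested there. In the other sets it passed through the groups where it was high, and its count adds nothing by itself. Of the 8, 5 were higher after H2O2 in WT (21.1% of all genes; median 1.33, all genes -0.02). CRK11 had 115, 120.4 and 95.5 CPM with H2O2 and 7.20, 7.98 and 7.45 CPM without (log2 fold change 3.87 ± 0.10, adjusted p = 6.4e-13, edgeR). CRK10 had 117, 119 and 102 CPM with H2O2 and 10.6, 11.7 and 12.1 CPM without (3.29 ± 0.08). CRK14 (2.92 ± 0.19), CRK13 (1.37 ± 0.25) and CRK15 (1.28 ± 0.35) were also higher. CRK5, CRK6 and CRK8 overlapped between the groups, with log2 fold changes of 0.36, 0.38 and 0.16. In this stimulus the pair of CRK10 and CRK11 led, whereas CRK6 led after pep3; the difference between stimuli was not tested because each set was fitted alone.

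UVB gave a smaller change. Of the 8 members tested in WT 4 were higher (19.3% of all genes), CRK10 (1.03), CRK11 (1.52), CRK13 (1.85) and CRK14 (1.53), and 1 was lower (21.5%), CRK5 (-0.35). CRK13 had 15.51, 20.1 and 28.6 CPM after UVB and 6.32, 5.46 and 6.03 CPM without. CRK5 had 8.41, 11.4 and 9.12 CPM after UVB and 14.2, 12.1 and 10.3 CPM without, groups that overlapped, and its call (adjusted p = 0.045, edgeR) was lost without any of 4 libraries, unstimulated replicates 1 and 2 and UVB replicates 1 and 3.

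With each hormone and with the inhibitor 2 or 3 of 9 members were called in WT. With abscisic acid 2 of 9 were higher in WT (16.7% of all genes), a count near that share. These were CRK11, with 11.6, 7.75 and 8.69 CPM against 5.58, 6.98 and 7.22 CPM (0.49 ± 0.15), and CRK14, with 2.13, 1.61 and 1.36 CPM against 0.907, 0.748 and 0.7 CPM (1.12 ± 0.34). Without abscisic acid replicate 1 neither passed, without unstimulated replicate 1 CRK11 did not and without unstimulated replicate 3 CRK14 did not. With methyl jasmonate 3 of 9 were lower (16.1% of all genes), CRK5 (-0.65 ± 0.19), CRK10 (-0.51 ± 0.11) and CRK11 (-0.99 ± 0.18). CRK11 had 2.89, 4.48 and 2.92 CPM with methyl jasmonate and 5.58, 6.98 and 7.22 CPM without, with no overlap. 3MBiP itself lowered 2 of 9 in WT (4.03% of all genes): CRK5 had 7.30, 6.58 and 7.09 CPM with 3MBiP and 13.1, 15.6 and 15.7 CPM with DMSO (-1.08 ± 0.16, adjusted p = 2.7e-05, edgeR), and CRK11 had 5.58, 6.98 and 7.22 CPM with 3MBiP and 10.9, 11.9 and 12.2 CPM with DMSO (-0.82 ± 0.15). Every other B1 to B4 group carries that inhibitor.

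In B2 impk36, impk4 and WT seedlings received the same flg22 treatments, all under 3MBiP. In impk36 the cluster was lower than in WT at 30 min and much of it was higher at 1 h. At 30 min 6 of 9 genes were lower in impk36 (18.8% of all genes lower; median -0.99, all genes 0.01). At 1 h 6 of 9 were higher (24.6%), CRK6, CRK7, CRK8, CRK13, CRK14 and CRK15, and the other 3 were lower (22.5%), CRK5, CRK10 and CRK11. In impk4 the genes that passed were lower at both times, 5 of 9 at 30 min (13.2%) and 7 of 9 at 1 h (18.9%). At 1 h the green tissue markers summed to 18590 to 21080 CPM in impk36, 16360 to 19210 CPM in impk4 and 15450 to 15960 CPM in WT, and their part was not tested.

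CRK6 showed the change of direction most. At 30 min it had 0.378, 0.575 and 0.355 CPM in impk36 and 4.12, 3.26 and 4.20 CPM in WT (log2 fold change -3.16 ± 0.34, adjusted p = 2.9e-09, edgeR). At 1 h it had 24.4, 13.2 and 21.5 CPM in impk36 and 4.84, 2.70 and 3.74 CPM in WT (2.41 ± 0.19, 9.8e-13). The groups did not overlap at either time and lay in opposite order. CRK7 had 0, 0.105 and 0.177 CPM in impk36 and 0.266, 0.246 and 0.335 CPM in WT at 30 min, which did not pass (-1.55 ± 0.74). At 1 h it had 17.0, 14.3 and 17.7 CPM in impk36 and 2.10, 1.08 and 1.52 CPM in WT (3.40 ± 0.22, 1.6e-15). CRK8 had 2.51, 1.26 and 2.45 CPM in impk36 and 0.892, 0.97 and 0.888 CPM in WT at 1 h (1.21 ± 0.32). CRK13, whose raised expression is known to go with more salicylic acid, reached its highest level of the series here, with 359.6, 268.7 and 323.6 CPM in impk36 and 183, 141 and 166 CPM in WT at 1 h (0.96 ± 0.09, 4e-10). CRK14 had 204, 144 and 177 CPM in impk36 and 133, 98.5 and 114 CPM in WT at 1 h (0.60 ± 0.12). CRK15 had 14.0, 8.10 and 11.7 CPM in impk36 and 4.91, 3.83 and 4.76 CPM in WT (1.32 ± 0.17).

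In level CRK10 and CRK11 were not higher in impk36 at 1 h. CRK11 also began lower in unstimulated impk36, and its response at 1 h was larger there than in WT (0.96), while that of CRK10 was smaller (-0.43). At 30 min CRK10 had 170.2, 211 and 186 CPM in impk36 and 412, 355 and 363 CPM in WT (-0.99 ± 0.08, adjusted p = 3.8e-12, edgeR), and at 1 h 273, 230.4 and 247 CPM in impk36 and 318, 275 and 285 CPM in WT (-0.23 ± 0.08). CRK11 was lower by 1.06 ± 0.10 on the log2 scale at 30 min, with 113, 126 and 124 CPM in impk36 and 269, 236 and 253 CPM in WT, and by 0.25 ± 0.10 at 1 h. CRK5 was lower by 0.73 ± 0.12 at 30 min and by 0.35 ± 0.12 at 1 h. The 3 small changes at 1 h were each lost without 1 of 2 libraries, always including impk36 replicate 2 and otherwise WT replicate 1 (CRK10 and CRK11) or WT replicate 3 (CRK5). The call of CRK8 at 30 min (-1.02) was lost without impk36 replicate 3, where it was -0.57.

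In impk4 the largest differences were in CRK7, with 0.528, 0.344 and 0.245 CPM in impk4 and 2.10, 1.08 and 1.52 CPM in WT at 1 h (-2.09 ± 0.39, adjusted p = 5.1e-05, edgeR), and CRK8, with 0.117, 0.172 and 0.49 CPM in impk4 and 0.892, 0.97 and 0.888 CPM in WT (-1.66 ± 0.47; -2.62 without impk4 replicate 3). CRK13 had 106, 98.9 and 106 CPM in impk4 and 183, 141 and 166 CPM in WT at 1 h (-0.66 ± 0.09), without overlap. CRK14 had 73.9, 78.3 and 75.1 CPM in impk4 and 133, 98.5 and 114 CPM in WT (-0.60 ± 0.12). CRK10 (-0.33), CRK11 (-0.25) and CRK15 (-0.53) were lower by less, CRK6 (-0.17) overlapped with WT and CRK5 (0.17) did not pass. The call of CRK11 was lost without WT replicate 1 or impk4 replicates 1 or 2, and that of CRK15 without WT replicates 1 or 3 or impk4 replicates 1 or 3. At 30 min the calls of CRK10 (-0.24) and CRK11 (-0.32) were lost without WT replicate 1 or impk4 replicates 1 or 3, which leaves 3 of 9.

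The change between 30 min and 1 h was then compared directly, as a comparison added after the values were seen. Within impk36 9 of 9 genes were higher at 1 h than at 30 min (19.3% of all genes), and the calls of CRK5 (0.31) and CRK8 (1.21) in it were lost without single libraries, CRK8 without 30 min replicate 3 and CRK5 without 30 min replicates 1 or 2 or 1 h replicates 1 or 3. The change from 30 min to 1 h was more positive in impk36 than in WT for 8 of 9 (8.68% of all genes), with CRK5 at 0.38 ± 0.17 not passing. CRK6 had the largest such difference, 5.57 ± 0.38 (adjusted p = 1.1e-13, edgeR), followed by CRK7 at 4.96 ± 0.79 and CRK8 at 2.23 ± 0.46. CRK10 and CRK11 had 0.77 ± 0.11 and 0.82 ± 0.14. The share of alignments that were not unique was 14 to 16.4% in impk36 and 6.57 to 7.28% in WT at 30 min, and 14.5 to 15.6% in impk36 and 6.64 to 7.11% in WT at 1 h, and its part in the levels of CRK6 and CRK8, which share sequence, was not tested.

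**Figure D2:**
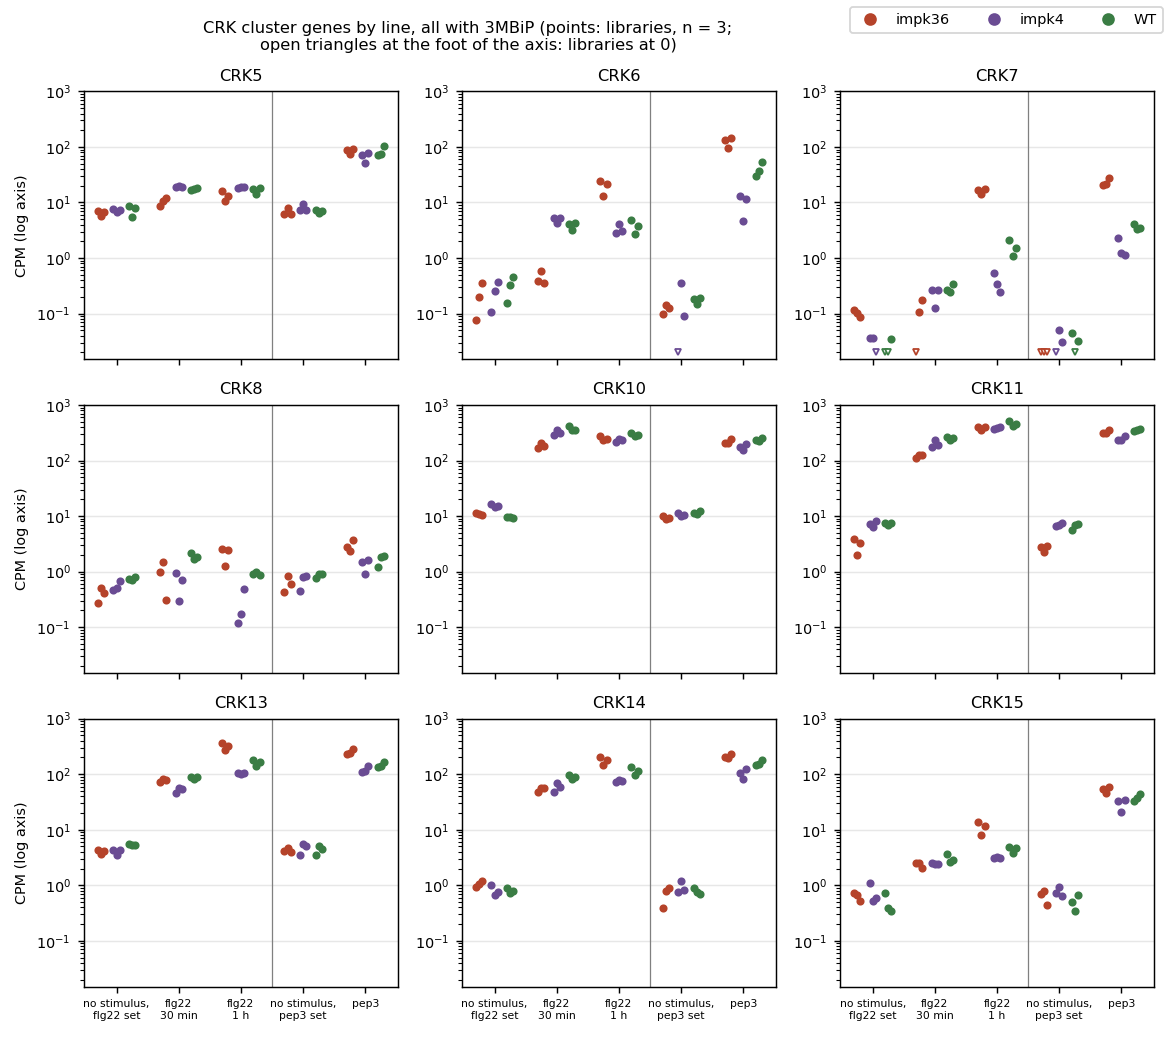
CPM (log axis) of each gene in impk36, impk4 and WT seedlings under 3MBiP, with 3 libraries per group, unstimulated and after 30 min or 1 h of 2 nM flg22 and after 1 h of pep3. CRK6 lies lower in impk36 than in WT at 30 min and higher at 1 h, while CRK10 and CRK11 differ little between the lines at 1 h.

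The response, meaning the stimulated minus the unstimulated level, was also tested between lines. At 30 min the response was smaller in impk36 than in WT for 2 of 9 (4.14% of all genes), CRK6 (-2.62 ± 0.76) and CRK10 (-1.19 ± 0.14, adjusted p = 2e-07, edgeR), and in impk4 for CRK10 (1 of 9, -0.95 ± 0.13; 2.23%). At 1 h it was larger in impk36 for 4 of 9 (8.27%), CRK6 (2.95 ± 0.67), CRK8 (2.15 ± 0.53), CRK11 (0.96 ± 0.21) and CRK13 (1.34 ± 0.20), and smaller for 1 of 9 (6.86%), CRK10 (-0.43 ± 0.14). In impk4 it was smaller at 1 h for CRK10 (1 of 9, -1.03 ± 0.13; 4.6%). CRK10 began higher in unstimulated impk4, at 16.9, 14.4 and 14.9 CPM, than in WT, at 9.61, 9.63 and 9.20 CPM, which enters each of its responses there. CRK11 began lower in unstimulated impk36, at 3.90, 2.02 and 3.34 CPM, than in WT, at 7.52, 6.89 and 7.58 CPM. At 30 min the difference in CRK6 was lost without any of 5 libraries: WT unstimulated replicate 1, impk36 unstimulated replicates 2 and 3, and impk36 flg22 replicates 1 and 3. At 1 h CRK6 was lost without WT unstimulated replicate 3, and CRK10 without that library, WT flg22 replicate 1, impk36 unstimulated replicate 1 or impk36 flg22 replicate 2, so that 3 of 9 passed without WT unstimulated replicate 3.

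After pep3 members were again higher in impk36, and lower in impk4, than in WT. In impk36 6 of 9 genes were higher than in WT (16.2% of all genes; median 0.47, all genes 0.00) and 0 were lower. In impk4 5 of 9 were lower (4.23%; median -0.44, all genes -0.01). CRK6 had 131, 94.5 and 144 CPM in impk36, 13.2, 4.60 and 11.4 CPM in impk4, and 29.98, 37.1 and 54.4 CPM in WT, without overlap between any pair of lines. Its log2 fold change against WT was 1.59 ± 0.21 in impk36 (adjusted p = 4.9e-07, edgeR) and -2.06 ± 0.23 in impk4 (5.9e-07). CRK7 had 20.9, 21.2 and 27.7 CPM in impk36, 2.33, 1.23 and 1.12 CPM in impk4, and 4.18, 3.27 and 3.48 CPM in WT (2.68 ± 0.23 and -1.24 ± 0.27). CRK13 had 231, 239.7 and 284 CPM in impk36 and 133, 143 and 169 CPM in WT (0.76 ± 0.11), and in impk4 it did not pass (-0.28 ± 0.11). CRK14 was higher in impk36 (0.41 ± 0.11) and lower in impk4 (-0.62 ± 0.11), and CRK15 was higher in impk36 (0.47 ± 0.14).

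In level CRK10 and CRK11 were again not higher in impk36 than in WT, and CRK11 began lower in unstimulated impk36. CRK10 had 209, 209 and 246 CPM in impk36 and 231, 229.7 and 259 CPM in WT, which overlapped (-0.12 ± 0.08), and in impk4 it fell to 176, 158 and 196 CPM (-0.44 ± 0.08, adjusted p = 0.00027, edgeR). CRK11 was -0.12 ± 0.10 in impk36, with overlap, and -0.52 ± 0.10 in impk4. CRK5 overlapped with WT in both lines (0.04 and -0.31). Impk36 against impk4 after pep3, a comparison added after the values were seen, was higher for 9 of 9 (14.6% of all genes), from 0.32 ± 0.08 in CRK10 to 3.92 ± 0.25 in CRK7; the call of CRK5 (0.34) was lost without impk36 replicates 1 or 3 or impk4 replicates 1 or 2, and with DESeq2. After 1 h of flg22 impk36 was higher than impk4 for 6 of 9 (16.1%) and lower for CRK5 (1 of 9, -0.52 ± 0.12; 15.2%). Impk36 pep3 replicate 3 held 42.4% of alignments that were not unique, and without it 4 of 9 genes were higher in impk36 than in WT, CRK8 and CRK15 having lost their calls. Those 2 were also lost without WT pep3 replicate 1. Without impk4 pep3 replicate 3, 8 of 9 were lower in impk4.

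The response to pep3 was larger in impk36 than in WT for 3 of 9 (7.66% of all genes), CRK8 (1.28 ± 0.44), CRK11 (1.20 ± 0.21) and CRK13 (0.80 ± 0.23). CRK8 (adjusted p = 0.043, edgeR) was lost without any of 9 of the 12 libraries, and CRK13 without WT unstimulated replicate 2 or impk36 unstimulated replicate 3, so that either of these leaves 1 of 9. For impk4 0 of 9 responses to pep3 differed from WT by edgeR (0.702% of all genes), with 5 at an unadjusted p under 0.05, 0 by DESeq2 and 1 without impk4 pep3 replicate 3. For abscisic acid and methyl jasmonate 0 of 9 responses differed from WT in either line by edgeR or DESeq2, with 1 at an unadjusted p under 0.05 for abscisic acid in each line and 0 for methyl jasmonate. Over all genes 0% and 0% differed for abscisic acid, and 0.0141% in impk36 and 0.00471% in impk4 for methyl jasmonate.

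Without a stimulus few members differed between impk36 and WT. CRK11 was the only member to pass by edgeR in impk36 in either set, lower in B1 (1 of 9; 2.41% of all genes) with 2.78, 2.26 and 2.86 CPM in impk36 and 5.58, 6.98 and 7.22 CPM in WT (-1.32 ± 0.18, adjusted p = 2e-05, edgeR), and lower in B2 (1 of 9; 16.6%) by 1.21 ± 0.18 on the log2 scale. The count in B2 is not above the share of all genes. With DESeq2 CRK13 also passed in B2 (-0.38, adjusted p = 0.036). The groups of CRK11 overlapped in neither set. In impk4 0 of 9 passed in B1 by edgeR (0.0801%; 0 at an unadjusted p under 0.05, 0 by DESeq2), and CRK10 was higher in B2 (1 of 9, 0.70 ± 0.11; 8.38%). In B1, where it did not pass, CRK10 had 11.3, 9.91 and 10.5 CPM in impk4 and 11.3, 11.1 and 12.1 CPM in WT (-0.13 ± 0.10).

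After the other stimuli CRK10 and CRK11 were the members most often lower in the lines. CRK11 was already lower in unstimulated impk36 (-1.32 in B1 and -1.21 in B2). Its responses to wounding, abscisic acid and methyl jasmonate there did not pass against WT. With wounding 4 of 9 were lower in impk36 (22.4% of all genes), CRK10, CRK11, CRK13 and CRK14, and CRK10 in impk4 (1 of 9; 1.65%). The green tissue markers summed to 19450 to 20960 CPM in impk36, 14660 to 17260 CPM in impk4 and 16350 to 17060 CPM in WT, and their part was not tested. CRK10 had 15.1, 17.1 and 16.0 CPM in impk36, 22.0, 20.4 and 21.1 CPM in impk4, and 29.2, 36.5 and 31.8 CPM in WT (-1.01 ± 0.10 and -0.62 ± 0.10). Its wounding response was smaller in impk36 (1 of 9, -1.22 ± 0.15; 3.76%) and in impk4 (1 of 9, -1.32 ± 0.15; 4.35%). With H2O2 3 of 8 were lower in impk36 (8.02%), CRK10 (-1.14 ± 0.07), CRK11 (-0.83 ± 0.09) and CRK14 (-0.96 ± 0.16), and 2 of 8 in impk4 (0.822%), CRK10 (-0.50 ± 0.07) and CRK11 (-0.38 ± 0.08). CRK10 had 49.5, 55.8 and 48.7 CPM in impk36, 79.1, 85.4 and 74.4 CPM in impk4, and 117, 119 and 102 CPM in WT, all without overlap. The call of CRK11 in impk4 (adjusted p = 0.046, edgeR) was lost without WT replicates 1 or 2 or impk4 replicates 1 or 3. With abscisic acid CRK10 (-0.61) and CRK11 (-1.63) were lower in impk36 (2 of 9; 2.63%), and in impk4 0 of 9 passed by edgeR (0.259%; 1 at an unadjusted p under 0.05 and 1 by DESeq2). With methyl jasmonate CRK11 was lower in impk36 (1 of 9, -0.86; 1.3%), a call lost without WT replicates 1 or 2 or impk36 replicates 1 or 2, and in impk4 0 of 9 passed by edgeR (0.113%; 0 at an unadjusted p under 0.05, 0 by DESeq2).

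UVB set CRK5 apart. It had 17.9, 20.9 and 18.1 CPM in impk36, 18.5, 16.2 and 16.3 CPM in impk4, and 8.41, 11.4 and 9.12 CPM in WT after UVB. Neither line overlapped with WT, and CRK5 was the only one of 8 higher in impk36 (3.63% of all genes; 0.98 ± 0.13, adjusted p = 0.00012, edgeR) and in impk4 (0.294%; 0.82 ± 0.13, adjusted p = 0.011). The impk4 call was lost without WT replicate 1 or impk4 replicate 3. CRK10 (-0.67), CRK11 (-1.57) and CRK14 (-1.12) were lower in impk36 after UVB (3 of 8; 6.1%). CRK11 had 18.4, 18.8 and 15.4 CPM in impk36 and 52.0, 46.9 and 58.4 CPM in WT. With no unstimulated impk36 or impk4 in B3 and B4, a difference in level and a difference in response cannot be told apart there.

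In adult impk4 shoots the inhibitor raised most of the cluster at 24 h. At 3, 6 and 12 h 0 of 9 differed between 3MBiP and mock by edgeR, with 1, 3 and 0 at an unadjusted p under 0.05 and 0, 1 and 0 by DESeq2; 0.279%, 6.08% and 14.2% of all genes were called at these times. At 24 h 7 of 9 were higher (13.7% of all genes; median 1.68, all genes -0.01). CRK6 had 22.5, 21.1 and 34.5 CPM with 3MBiP and 4.23, 3.92 and 2.86 CPM with mock (2.82 ± 0.31, adjusted p = 9.7e-07, edgeR). CRK14 had 15.6, 12.1 and 16.2 CPM with 3MBiP and 3.86, 3.15 and 1.59 CPM with mock (2.34 ± 0.44). CRK15 had 7.40, 5.08 and 6.37 CPM with 3MBiP and 1.59, 1.49 and 1.22 CPM with mock (2.13 ± 0.26), and CRK5 had 22.8, 14.8 and 22.0 CPM with 3MBiP and 6.34, 7.18 and 4.61 CPM with mock (1.70 ± 0.19). CRK7 (1.68), CRK8 (1.64) and CRK10 (1.01) were also higher, CRK11 (0.65 ± 0.62) did not pass and CRK13 (0.15 ± 0.36) overlapped. The call of CRK7 was lost without mock replicates 1 or 3 or 3MBiP replicate 3, and that of CRK10 without mock replicates 2 or 3 or 3MBiP replicates 1 or 3.

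The adult impk4 plants without 3MBiP also differed over the 24 h. Over untreated plants at 0 h and mock at 3, 6, 12 and 24 h, 9 of 9 differed by the edgeR F test (84.5% of all genes). That count is near the share of all genes. The 0 h plants were not sprayed, so spray and time cannot be told apart between 0 h and the later times. The summed green tissue markers ran from 26400 to 69180 CPM over these times, lowest at 12 h and highest at 24 h, and their part was not tested. CRK6 had 24.7, 43.8 and 19.0 CPM at 0 h, 2.82, 2.99 and 1.63 CPM at 3 h, 4.98, 6.46 and 7.06 CPM at 6 h, 18.0, 19.3 and 20.5 CPM at 12 h, and 4.23, 3.92 and 2.86 CPM at 24 h. With 3MBiP it had 3.13, 2.13 and 1.34 CPM at 3 h, 12.9, 7.20 and 9.07 CPM at 6 h, 24.03, 19.0 and 20.4 CPM at 12 h, and 22.5, 21.1 and 34.5 CPM at 24 h. The mock libraries of CRK6 at 24 h all lay below those at 12 h, whereas the 3MBiP libraries at 24 h overlapped with those at 12 h. The calls of CRK11 (adjusted p = 0.036, edgeR) and CRK13 (0.039) over the untreated and mock times were lost without 1 of 8 and 1 of 4 libraries. CRK11 lost it without 3 h replicate 3, 6 h replicates 2 or 3, any at 12 h, or 24 h replicates 2 or 3. CRK13 lost it without any at 6 h or 12 h replicate 3.

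In untreated mpk4 shoots 8 of 9 genes were higher than in untreated impk4 (45.5% of all genes; median 2.93, all genes 0.19). The green tissue markers were far apart in the same comparison, with sums of 9951 to 11610 CPM in mpk4 and 55060 to 64760 CPM in impk4. Their part in the levels of the 9 genes was not tested. CRK7 had 236, 268 and 240.4 CPM in mpk4 and 2.80, 7.63 and 2.02 CPM in impk4 (5.91 ± 0.34, adjusted p = 4.1e-13, edgeR). CRK6 had 479.9, 597 and 499.9 CPM in mpk4 and 24.7, 43.8 and 19.0 CPM in impk4 (4.17 ± 0.28). CRK13 had 43.2, 45.8 and 37.1 CPM in mpk4 and 1.27, 2.75 and 1.33 CPM in impk4 (4.56 ± 0.32), and CRK8 had 27.1, 29.8 and 27.5 CPM in mpk4 and 0.865, 2.55 and 1.68 CPM in impk4 (4.05 ± 0.24). No library of mpk4 overlapped with impk4 in these 4 genes. CRK11 (2.93), CRK14 (2.87), CRK15 (2.73) and CRK5 (1.14) were higher by less. CRK10 had 188, 213 and 183 CPM in mpk4 and 104, 323 and 101 CPM in impk4, which overlapped (0.15 ± 0.29).

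Impk4 0 h replicate 2 stood apart from the other two of its group. CRK10 had 323 CPM there and 104 and 101 CPM in the others, CRK11 20.4 CPM and 1.88 and 2.22 CPM, and CRK14 39.3 CPM and 12.7 and 10.8 CPM. Without it CRK10 passed in mpk4 at 0.92 (adjusted p = 4.2e-05, edgeR), and CRK6, CRK7, CRK11 and CRK14 had 4.59, 6.68, 4.91 and 3.70. Against impk4 mock at 24 h instead, chosen after the values were seen, CRK10 was 2.35 higher on the log2 scale in mpk4, and its mock level was 43.3, 37.3 and 33.9 CPM at that time. The time of day at which mpk4 was taken is not given in the sources used here.

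**Figure D3:**
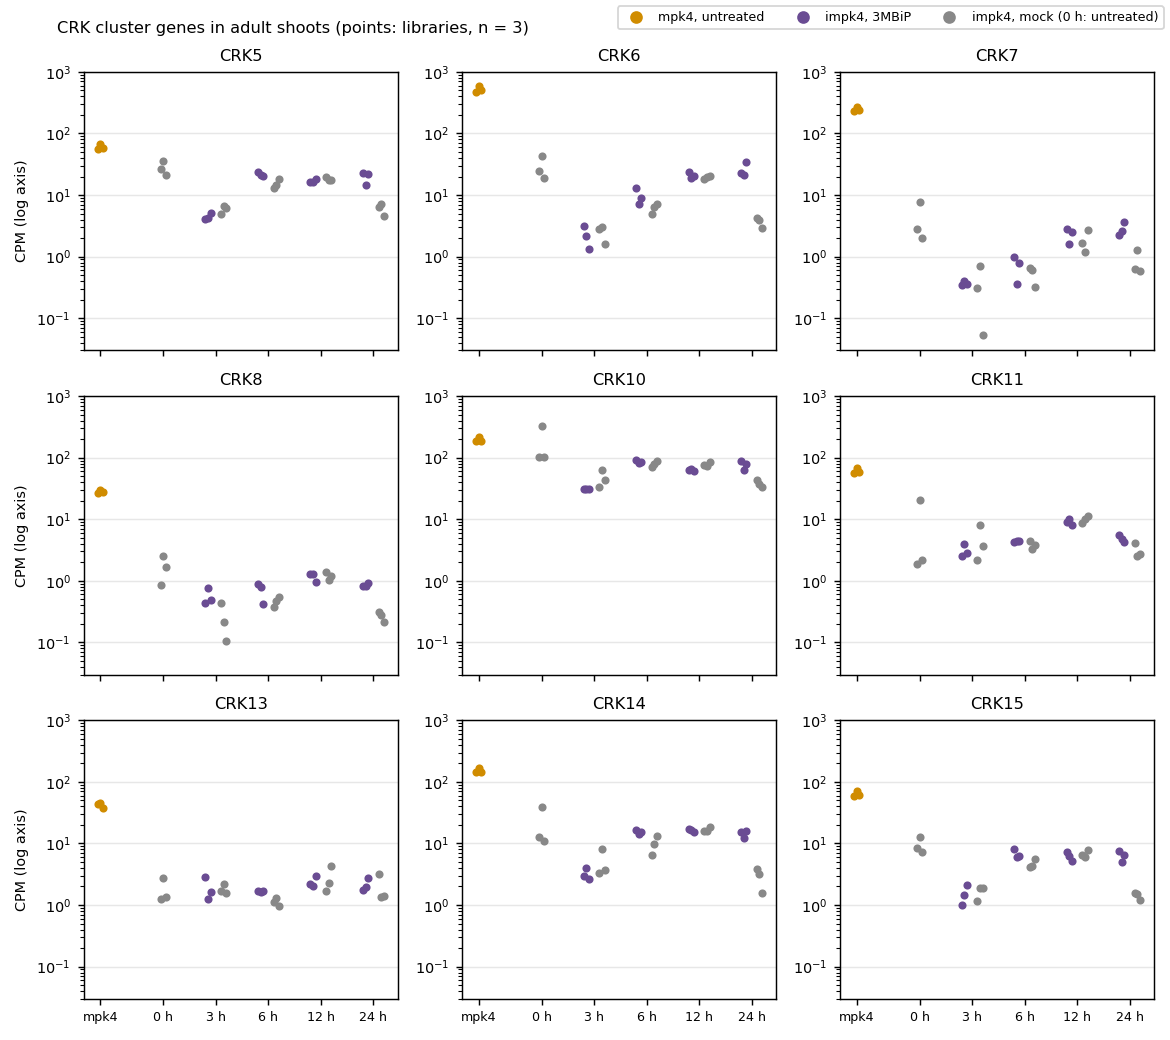
CPM (log axis) of each gene in shoots of untreated mpk4, and of impk4 untreated (0 h) and 3, 6, 12 and 24 h after 3MBiP or mock, with 3 libraries per group. At 24 h the 3MBiP libraries of CRK6 lie at 21.1 to 34.5 CPM, above the mock libraries at 2.86 to 4.23 CPM, and the mpk4 libraries of CRK6 and CRK7 lie above every impk4 library.

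Along the array the 9 genes shared their responses with some neighbours and not with others. Of the 11 other CRK genes of the array 10 were higher and 0 lower in WT after pep3 (median 2.84; 32.2% of all genes higher and 30.4% lower), and 8 were higher and 3 lower after 1 h of 2 nM flg22 (median 3.26; 29.8% higher and 30.6% lower). CRK20 (AT4G23280) had a mean of 142 CPM after 1 h of flg22 and 0.0114 CPM without, while CRK21 (AT4G23290) and CRK22 (AT4G23300) fell by 0.76 and 0.74 on the log2 scale. CRK16 (AT4G23240), which lies next to CRK15, had 1.29 CPM after flg22 and 2.79 CPM without (-1.08 ± 0.19). Of the 6 genes annotated just outside the array, 3 on each side, 3 were tested in the same comparison and none passed: GSH1 (AT4G23100), the third gene out from CRK5, at 0.04 ± 0.05, AT4G23330, next to CRK24, at -0.13 ± 0.08, and AT4G23340 at 0.60 ± 0.42. AT4G23110, AT4G23120 and AT4G23350 did not pass the filter on low counts. In impk36 after 1 h of flg22 the far side of the array went the other way from CRK6, CRK7 and CRK13: CRK17 (AT4G23250, -2.01), CRK18 (AT4G23260, -1.41), CRK19 (AT4G23270, -1.01) and CRK20 (-2.88) were lower than in WT, whereas CRK12 (AT4G23200, 1.34) and CRK16 (1.10) were higher. The annotations of CRK16 and CRK17 overlap on the same strand between positions 12162004 and 12163193, where their exons share 629 windows of 50 bases, so their values are uncertain. In mpk4 shoots CRK21 was lower (-3.77 ± 0.12) and CRK23 (AT4G23310) was higher (4.54 ± 0.23), while CRK20 had 9.79 CPM in mpk4 and 0.0516 CPM in impk4.

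**Figure D4:**
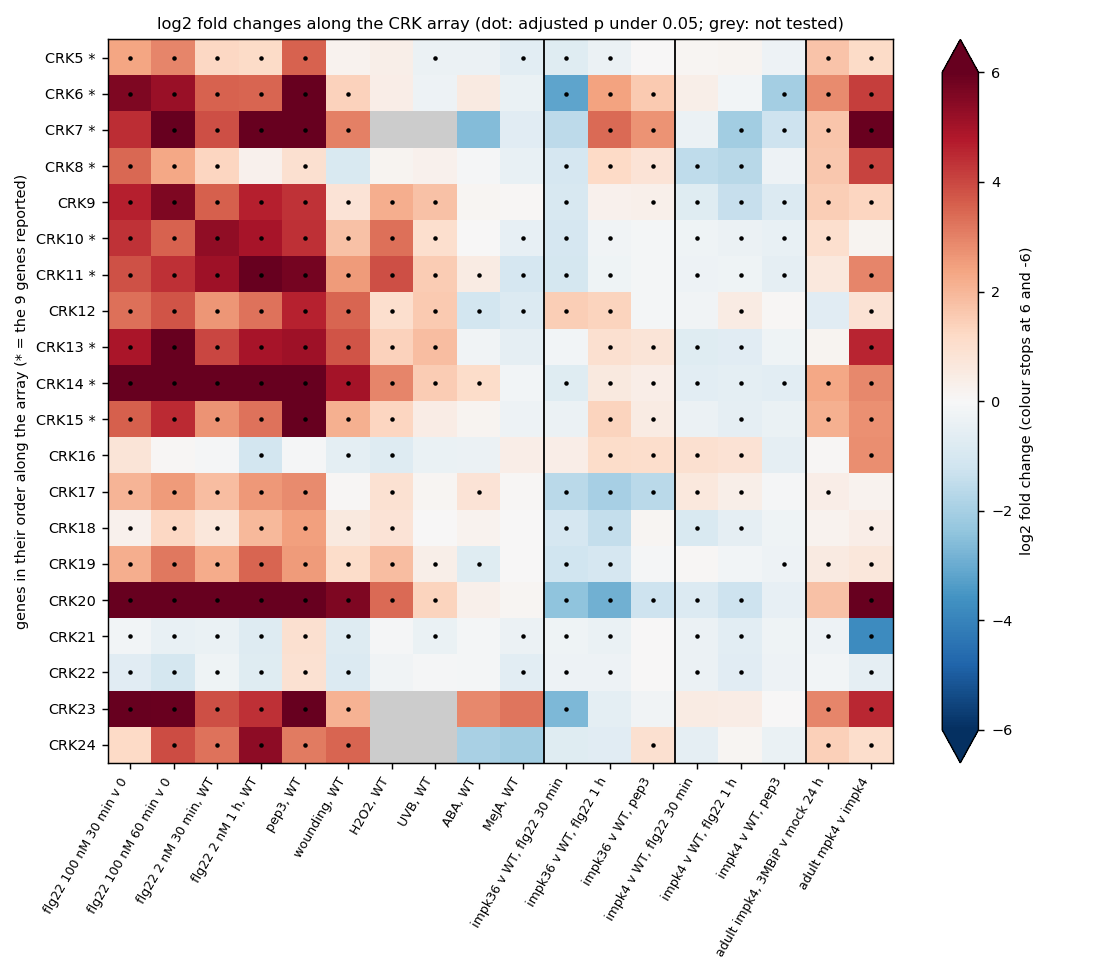
Log2 fold changes of the 20 CRK genes in their order along the array (top to bottom) in 18 comparisons, with dots for adjusted p under 0.05 and grey for genes that were not tested. The column for impk36 after 1 h of flg22 is above 0 from CRK6 to CRK9 and from CRK12 to CRK16, and below 0 from CRK17 to CRK24.

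Genes of the surrounding pathway give the scale of these changes. Among 12 genes of the receptor complexes and the oxidative burst 12 were higher in WT after 1 h of flg22 and 12 after pep3 (medians 2.25 and 1.97; 29.8% and 32.2% of all genes higher). In impk36 at 1 h of flg22 10 of the 12 were lower (22.5% of all genes; median -0.78, against 0.96 for the 9 CRK genes), among them RBOHD (AT5G47910), the oxidase of the burst, with means of 198 CPM in impk36 and 488 CPM in WT (-1.30 ± 0.08), EFR (-1.23) and BAK1 (-0.67). Among the 14 of 16 salicylic acid genes that were tested 7 were higher (24.6% of all genes) and 3 lower (median 0.57), led by WRKY70 (AT3G56400, 2.47 ± 0.10), EDS1 (AT3G48090), a hub of immune signalling, with 406 CPM in impk36 and 122 CPM in WT (1.73 ± 0.07), and SARD1 (AT1G73805, 1.60 ± 0.09). In impk36 after pep3 the counts were 0 higher and 6 lower of the 12, with PEPR1 at -1.22, and 7 higher and 2 lower of the 14, with CBP60G at 1.65 and EDS1 at 1.28, against 16.2% of all genes higher and 17.9% lower. Of 21 CRK genes elsewhere in the genome 19 were tested in B2, and 7 were higher and 8 lower in impk36 at 1 h (24.6% and 22.5% of all genes), with CRK31 (AT4G11470, 2.08) and CRK36 (AT4G04490, 2.39) among the first and CRK29 (AT4G21410, -1.10) among the second. In adult impk4 at 24 h of 3MBiP 10 of 16 salicylic acid genes were higher (13.7% of all genes), with NIMIN1 at 4.02 and WRKY70 at 2.80, and in mpk4 16 of 16 were (45.5% of all genes), with PR1 (AT2G14610), a marker of salicylic acid signalling, at 584 CPM in mpk4 and 1.08 CPM in impk4 (9.09 ± 0.51). The lists were described, not tested as sets.

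Pearson correlations between the members were taken over the 49 group means of log2(CPM + 1), after the mean of each set was subtracted. They ran from 0.48 for CRK8 and CRK10 to 0.96 for CRK13 and CRK14. CRK10 and CRK11 had 0.95, and CRK6 and CRK7 had 0.89. The groups share controls, and the sets were normalised apart and came from count tables of different lengths, so these are descriptions. Of the 3 genes most like each member, among 15900 with a mean of at least 5 CPM, those kept both with a pseudocount of 0.1 and in the 39 seedling groups alone were an RLK (AT2G37710, r = 0.948) for CRK5, AT1G35710 (0.95) for CRK6, RLP23 (AT2G32680, 0.940) and VSR6 (AT1G30900, 0.919) for CRK7, AT5G39020 (0.976) and HSF A4A (AT4G18880, 0.976) for CRK10, AT1G51620 (0.976) for CRK13 and XBAT34 (AT4G14365, 0.982) for CRK14. For CRK8, CRK11 and CRK15 none of the 3 was kept by both.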

How the data were processed

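The authors deposited raw counts of reads per gene locus for each of the 141 libraries. Reads were aligned with TopHat and counted with HTSeq on TAIR10, per the submitters' processing notes, and versions, strand setting and filters are not given in the sources used here. Ambiguous reads made up 2.92 to 4.09% of a library in the longer tables (37336 loci, B4 and adult shoots). In the other tables (32678 loci) they made up 0.908 to 1.76%. The part of this difference in the levels was not tested. HTSeq's summary counters were left out of library sizes. Groups came from the labels, and nothing in them says that replicates were separate cultures, so p-values measure the spread between libraries, which may be technical. None of 135 replicate pairs agreed within sampling noise.

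Each of 6 sets (the time course, B1 to B4 and the adult shoots) was fitted alone over all its genes in R 4.3.3 with edgeR 4.0.16 (filterByExpr, TMM scaling, robust quasi-likelihood tests, Benjamini-Hochberg adjustment over all genes, threshold 0.05) and tested on simulated data. The sets held 20806 to 21543 tested genes. There were 52 planned comparisons and 6 added after the values were seen. Alternatives were DESeq2 1.42.0, RLE size factors, no filter on low counts, a replicate block and leaving out each library. Counting intervals are exact at 95% and, like the floor of 3 counts, cover counting error only. The members and gene lists were chosen with earlier results of these data known. Of each other list up to 3 genes with an adjusted p under 0.05, in order of p, were named by comparison. Of each member the 3 most alike genes were named, among 15900 genes of at least 5 CPM on average. Likeness was the correlation of group means of log2(CPM + 1), with the mean of each set subtracted. Promoters came from the RefSeq TAIR10.1 genome. Equal replicate numbers were taken as pairs where deviations correlated over 0.1 in 3 of 3 pairs. This held for impk36 against WT after 1 h of flg22 (0.18 to 0.21), for 1 h against 30 min of flg22 in WT (0.15 to 0.2) and for impk4 against WT after UVB (0.18 to 0.3). The main tests of these comparisons, like all others, held no replicate block, which was an alternative only.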

Additional observations from a re-analysis of the deposited data

Results flagged for a closer look

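For 14 values the response of a gene to a stimulus differed between a line and WT by the interaction term of the edgeR fit, given here as the log2 response of the line minus that of WT. After 30 min of flg22 the response was lower in impk36 for CRK6 (-2.62, adjusted p = 0.029, edgeR) and CRK10 (-1.19, 2e-07), and lower in impk4 for CRK10 (-0.95, 1.1e-05). After 1 h of flg22 it was higher in impk36 for CRK6 (2.95, 0.0014), CRK8 (2.15, 0.0034), CRK11 (0.96, 0.0011) and CRK13 (1.34, 6.6e-06), lower in impk36 for CRK10 (-0.43, 0.033), and lower in impk4 for CRK10 (-1.03, 2.1e-06). After pep3 it was higher in impk36 for CRK8 (1.28, 0.043), CRK11 (1.20, 8.8e-05) and CRK13 (0.80, 0.014). After wounding it was lower for CRK10 in impk36 (-1.22, 9.3e-06) and in impk4 (-1.32, 8.8e-07). The calls of CRK8 and CRK13 after pep3, of CRK6 after 30 min of flg22 and of CRK6 and CRK10 in impk36 after 1 h were lost without single libraries, named beside these results above. CRK11 started lower in unstimulated impk36 and CRK10 higher in unstimulated impk4 of B2, and each difference in response includes that difference in start.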

How the results depend on the processing

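No alternative turned the direction of a called member. Of 223 called values 187 kept their call without any single library and 36 lost it without at least 1, and these are given beside each result.

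Counts of called members changed by over 1.5 times in few comparisons. With DESeq2 they were 2 in place of 1 for impk36 and 2 in place of 1 for impk4 against WT, unstimulated, in B2, 1 in place of 0 for impk4 with abscisic acid, 3 in place of 1 for impk4 with wounding and 1 in place of 0 for 3MBiP against mock at 6 h. For differences in response DESeq2 gave 5 in place of 3 for pep3 in impk36, 4 in place of 2 for 30 min of flg22 in impk36, 2 in place of 1 for 1 h of flg22 in impk4 and 2 in place of 1 for wounding in impk36. Without the filter on low counts 0 in place of 1 passed for impk36 with methyl jasmonate and 1 in place of 2 for impk4 with H2O2. The cause was not tested.

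With 1 library left out the counts ranged from 0 to 2 for abscisic acid in WT, 0 to 1 for impk36 with methyl jasmonate, 1 to 2 for impk4 with H2O2, 0 to 1 for impk4 with UVB, 3 to 5 for impk4 after 30 min of flg22, 5 to 8 for impk4 with pep3 and 1 to 2 for impk4 with wounding. For differences in response they ranged from 3 to 5 (1 h of flg22, impk36), 1 to 2 (1 h of flg22, impk4), 1 to 2 (30 min, impk36), 1 to 3 (pep3, impk36), 0 to 1 (pep3, impk4) and 1 to 2 (wounding, impk4).

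With the replicate block 510 of 516 member values kept their call, 5 gained one and 1 lost it. In the 3 comparisons whose numbers pair the libraries no call changed. Elsewhere pairing was not established, although deviations correlated by up to 0.49 in single pairs (impk4 against WT after pep3). Whether equal numbers mark a shared batch there was not tested. In these comparisons CRK10 passed for 3MBiP against DMSO (-0.31), CRK13 for methyl jasmonate (-0.55), CRK13 (-0.28) and CRK15 (-0.39) for impk4 with pep3 and CRK13 for impk36 with H2O2 (-0.46). CRK13 over the untreated and mock times of adult impk4 did not.

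Per kb of coding sequence the median level of a member was 2.18, against 1.88 CPM per kb of exon. Of 27 genes named as most alike 14 were kept with a pseudocount of 0.1 and 14 in the seedling groups alone. CRK7 and CRK8 had few reads in most groups, which limits their values.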
